A study of Homo sapiens with 29 samples.

Results

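The genes described here are 80 to 120 kb wide, a class chosen by gene width alone and not by how their transcription behaved. Width was taken from the deposited tables, with a lower limit of 80000 bp and an upper limit of 120000 bp, and 1456 of the 4592 listed genes fell inside. Their widths ran from 80001 to 119998 bp with a median of 97.5 kb, and the nearest listed genes outside were 79956 and 120026 bp wide. The data are DRB/TTchem-seq of HEK293 cells, an established human embryonic kidney line. Both series were transduced with lentivirus for 4 days, the control series with shCtrl and the other with shTHOC5, a hairpin against THOC5. All cells were then held in 100 μM DRB for 3.5 h and washed. RNA was labelled with 1 mM 4SU and collected 10, 20, 30 or 40 min after DRB release. The paper states that the labelling time was the same, 10 min, for all release times. Each series had 1 library per release time, 8 libraries in all. There were no replicates of a release time, no test between control and THOC5-depleted cells was run, and no p-value is given. The 95% intervals below are binomial intervals over genes, and cover the spread between genes only, not that between cultures.

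DRB blocks the kinase CDK9, so that RNA polymerase II (Pol II) initiates but stays near the promoter, and washing it out lets a wave of Pol II move into the gene together. The wave peak is the position of the strongest 4SU-labelled signal at a given time, and its advance over time gives the elongation rate. THOC5 is a subunit of the THO complex, which binds nascent RNA and is known for its part in mRNA processing and export. No row of the tables holds THOC5 itself, and its depletion was not checked here. Wave peaks were called inside a window that opens 2 kb in front of the transcription start site (TSS) and closes 120 kb behind it, so the end of every one of these genes lies inside the window, and a wave peak can be called behind it. Positions are given in kb from the TSS, the first position of the window being -1.999 kb. The class held 31.7% of the coverage of all listed genes in control cells and 31.2% in THOC5-depleted cells. The paper's filter measures coverage over this whole window, so the coverage given for a gene may include that of its neighbours. Of the markers fixed for the cell line, the kidney gene PAX2 had a coverage of 57.7 rpm with shCtrl and 12.3 rpm with shTHOC5. CDH2 had 16.7 and 104 rpm and FGFR1 had 496 and 488 rpm. The blood genes PTPRC and IKZF1 had 3.07 to 13.4 rpm over both series, and with shTHOC5 PAX2 lay under IKZF1. The markers of other tissues CFTR, CD36, RBFOX3, GRIN2A, TTN and DMD were not among the listed genes. The control libraries were uneven in one respect: the median wave peak at 10 min lay farther downstream than that at 20 min. Control wave peaks over 40 kb from the TSS made up 43.2%, 36.5%, 43.4% and 43.6% of the genes at the 4 times. Which of these libraries stands apart cannot be told, so results that rest on them are given with that in view.

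Start regions of 4 genes are shown because their wave peaks stand for the courses found in the class: SPTAN1, the membrane skeleton protein spectrin, whose wave crept through the first 10 kb; SPAST, the microtubule-severing ATPase spastin, whose wave peaks all lay behind its end; MAP2K1, the kinase MEK1, with the same pattern and high coverage; and E2F3, a cell cycle transcription factor, whose peak left the window start between 10 and 20 min. The sequences are from RefSeq on GRCh38.p14, 250 bases before to 50 after the start, 5′ to 3′ on the gene's strand, with every CpG in capitals. SPTAN1 is at chr9:128552337-128552636, SPAST at chr2:32063306-32063605, MAP2K1 at chr15:66386662-66386961 and E2F3 at chr6:20401629-20401928, all on the plus strand.
SPTAN1: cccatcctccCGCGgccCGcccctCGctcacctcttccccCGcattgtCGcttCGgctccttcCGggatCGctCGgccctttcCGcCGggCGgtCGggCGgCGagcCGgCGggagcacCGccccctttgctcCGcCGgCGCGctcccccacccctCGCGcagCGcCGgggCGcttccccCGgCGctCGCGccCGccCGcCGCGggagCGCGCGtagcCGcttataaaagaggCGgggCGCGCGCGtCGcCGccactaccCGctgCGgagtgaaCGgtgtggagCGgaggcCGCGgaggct
SPAST: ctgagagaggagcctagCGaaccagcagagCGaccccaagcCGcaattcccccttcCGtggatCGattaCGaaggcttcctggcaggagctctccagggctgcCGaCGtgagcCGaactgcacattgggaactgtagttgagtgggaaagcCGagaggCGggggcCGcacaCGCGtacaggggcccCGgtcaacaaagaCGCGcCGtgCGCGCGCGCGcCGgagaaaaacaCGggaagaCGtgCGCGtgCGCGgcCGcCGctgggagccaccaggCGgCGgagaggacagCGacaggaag
MAP2K1: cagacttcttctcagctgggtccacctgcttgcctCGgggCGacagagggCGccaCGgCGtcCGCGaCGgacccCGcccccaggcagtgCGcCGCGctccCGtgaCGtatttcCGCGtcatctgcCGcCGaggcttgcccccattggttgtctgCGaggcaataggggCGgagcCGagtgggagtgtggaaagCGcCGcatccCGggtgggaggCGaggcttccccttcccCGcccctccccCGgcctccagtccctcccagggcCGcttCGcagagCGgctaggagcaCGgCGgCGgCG
E2F3: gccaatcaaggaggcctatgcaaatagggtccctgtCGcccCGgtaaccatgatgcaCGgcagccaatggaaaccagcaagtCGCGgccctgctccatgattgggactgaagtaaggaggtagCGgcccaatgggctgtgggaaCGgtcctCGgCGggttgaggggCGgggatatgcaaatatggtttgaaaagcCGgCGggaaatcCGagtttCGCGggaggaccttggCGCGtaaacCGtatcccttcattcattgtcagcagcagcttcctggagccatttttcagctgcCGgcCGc

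All 4 were rich in CpG, with 53, 35, 34 and 20 CpG in 300 bases, and a GC share of 78.0%, 66.7%, 72.0% and 58.3%. A RefSeq start lay within 100 bp of the annotated start of 758 of the 1402 genes whose deposited width equalled that of the annotation, and 590 of these 758 starts (77.8%) were CpG-rich, against 46.9% of all 35116 RefSeq promoters (observed over expected CpG of at least 0.6 and GC of at least 50%). The 758 starts were picked by gene width and by a start near the annotated one, so these sets are not alike. Read by the course of the wave, 89.2% of 65 starts of genes in order in both series were CpG-rich. It was 83.0% of 165 in order in THOC5-depleted cells only and 74.2% of 485 in order in neither. With both 10 min peaks at the window start it was 89.9% of 238, and with all wave peaks beyond the gene end 68.7% of 83. TATAAA, searched on both strands, occurred in 42 of the 758 starts and in 11.5% of all RefSeq promoters. None of these shares was tested.

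The called wave peaks fell into 3 places rather than around one typical position: the start of the window, the first 10 kb, and far down the gene or behind it. In control cells the very first position of the window held 32.6% of the genes at 10 min, 24.3% at 20 min, 16.9% at 30 min and 13.3% at 40 min. In THOC5-depleted cells it held 44.9%, 28.6%, 19.9% and 13.4%. Genes left the window start with time in both series, and the excess of THOC5-depleted cells at 10 min was gone at 40 min. The first 10 kb of the gene held 13.7%, 27.7%, 23.0% and 23.3% of the genes in control cells at the 4 times. In THOC5-depleted cells it held 11.0%, 30.1%, 36.0% and 32.1%. A larger share of THOC5-depleted than of control wave peaks thus lay in the first 10 kb at 20, 30 and 40 min. Between 40 kb and the gene end the shares were 21.8%, 12.6%, 18.7% and 18.7% in control cells, and 14.4%, 11.9%, 12.0% and 15.2% in THOC5-depleted cells.

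**Figure D1:**
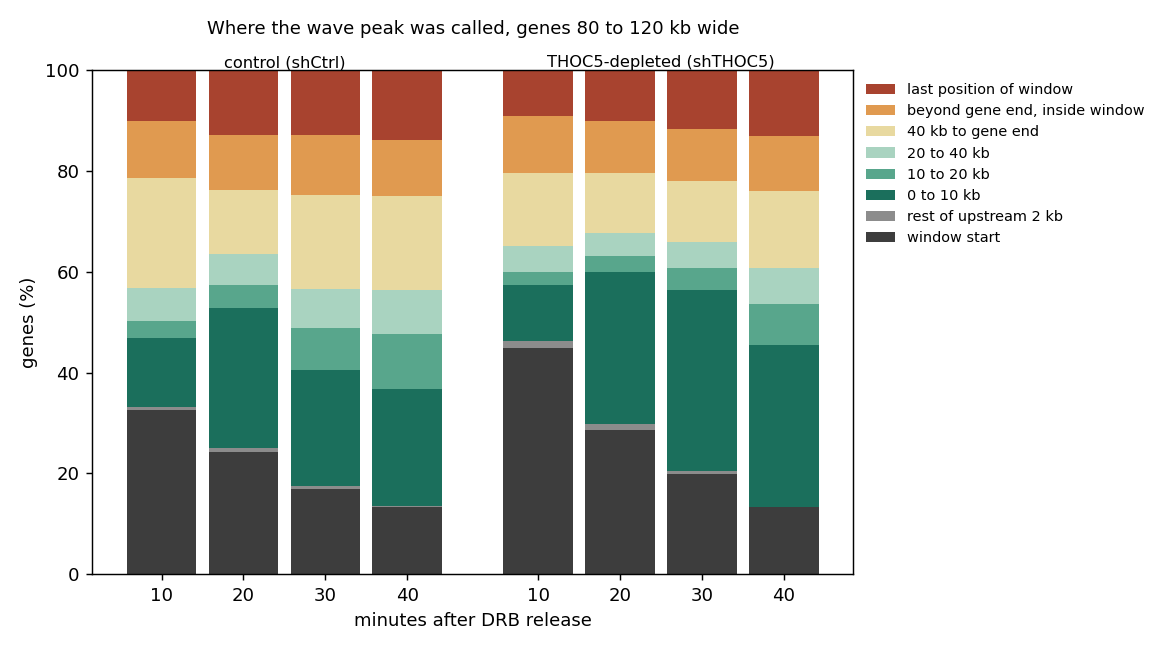
Share of the 1456 genes (%) by the place of the wave peak, for each release time in control (left) and THOC5-depleted cells (right). The window start shrinks from 32.6% to 13.3% and from 44.9% to 13.4%, while the share beyond the gene end stays between 20.4% and 24.9%.

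Because of this spread, the median describes no typical gene. In the control libraries of 10, 20, 30 and 40 min it was 18.9 kb (95% interval 10.8 to 25.4), 8.40 kb (7.65 to 9.75), 22.9 kb (16.2 to 28.9) and 24.7 kb (19.2 to 31.3). In those of THOC5-depleted cells it was 1.59 kb (0.486 to 2.63), 4.82 kb (4.42 to 5.48), 7.57 kb (7.07 to 8.16) and 12.8 kb (10.5 to 17.9). Only the THOC5-depleted medians advanced at every step. The control median stepped back between 10 and 20 min, when the share of genes with a wave peak over 40 kb from the TSS went from 43.2% to 36.5%. When wave peaks beyond the gene end were left out, the control medians were 3.57, 4.97, 8.77 and 10.2 kb, which do advance, and those of THOC5-depleted cells were -1.999, 3.13, 5.56 and 8.29 kb. Genes 80 to 100 kb and 100 to 120 kb wide had 40 min control medians of 24.5 and 24.9 kb and THOC5-depleted medians of 13.1 and 12.7 kb.

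A neighbour in front of the gene went with a call at the window start. Of 307 genes with another protein-coding gene in the 2 kb upstream, 49.2% (43.6 to 54.8) had their control 10 min wave peak there, and 33.6% still did at 40 min. Of 741 genes with no annotated gene in that stretch, 21.3% (18.5 to 24.4) did at 10 min and 4.72% (3.42 to 6.50) at 40 min. In THOC5-depleted cells the shares were 57.7% (52.1 to 63.1) and 34.5% with a neighbour, and 35.8% (32.4 to 39.3) and 5.67% without. The part of the upstream neighbours in these calls was not tested.

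Wave peaks beyond the gene end were frequent at all times. In control cells they made up 21.4%, 23.8%, 24.7% and 24.9% of the genes at the 4 times, and in THOC5-depleted cells 20.4%, 20.5%, 22.1% and 24.1%. Most were thus there already at 10 min after release, although every gene end lies over 80 kb from the TSS. The stretch behind the gene ends makes up 17.97% of the window positions of the class, against 23.7% of all control wave peaks and 21.8% of all THOC5-depleted ones. Many sat on the very last position of the window, namely 10.1% to 13.8% of the genes in control and 9.07% to 13.0% in THOC5-depleted cells over the 4 times. Genes 100 to 120 kb wide, which leave 8.79% of the window behind their ends, still had 19.7% of control and 17.5% of THOC5-depleted wave peaks there.

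Seen from the gene end, the wave peaks were denser from 5 kb behind it than in the gene before it. In the last 50 kb of the gene each 5 kb held 1.10% to 1.94% of the genes in control cells and 1.05% to 1.30% in THOC5-depleted cells, depending on the time. The first 5 kb behind the end held 1.76% to 2.22% and 0.995% to 2.45%, less than in the gene itself only in the THOC5-depleted 20 min library. From 5 to 20 kb behind the end each 5 kb held 3.23% to 3.71% and 3.15% to 3.63%. These are averages over the bins of the stretch among genes whose window reaches that far, and they leave out the last position of the window.

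**Figure D2:**
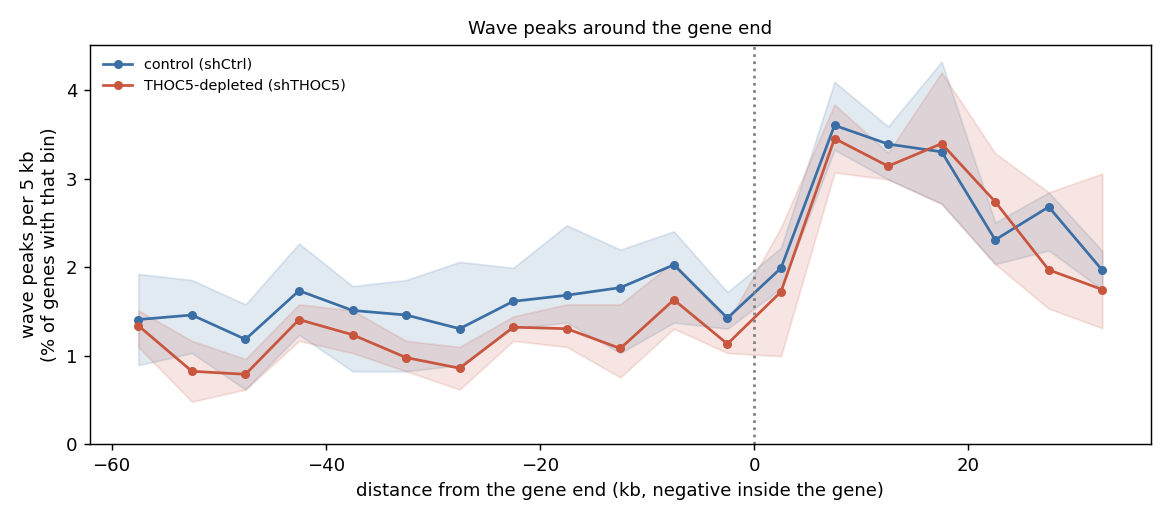
Wave peaks per 5 kb (% of the genes whose window holds that bin, last window position left out) against the distance from the gene end in kb. Lines are means over the 4 release times and bands run from the lowest to the highest time. Both series are higher from 5 to 20 kb behind the end than in the last 50 kb of the gene. Averaged over the bins from 5 to 20 kb, the share at a release time was 3.15% to 3.71%.

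The annotation behind the gene end moved with these calls. Another protein-coding gene covered 40.5% of the positions behind the ends, taken every 1 kb, but 75.4% to 81.8% of the control wave peaks called there and 77.2% to 81.0% of the THOC5-depleted ones. These neighbours lay on the same strand for 34.1% and on the other strand for 42.4% of such control wave peaks at 10 min. The labels name a ChIP library kit and do not say whether strand was kept in the coverage. In the 760 genes with a protein-coding gene behind the end, 39.5% (36.1 to 43.0) of control wave peaks lay beyond the end at 40 min. In the 642 genes without one it was 7.94% (6.09 to 10.3), under the 15.1% of their window that lies there. The THOC5-depleted series gave 37.8% and 8.26%. The part of the neighbouring genes' own transcription in these calls was not tested.

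Some genes carried such calls at every time and others at some. In control cells 130 genes had 1 wave peak beyond the end, 84 had 2 and 93 had 3, and in THOC5-depleted cells it was 94, 62 and 66 genes. In control cells 201 genes and in THOC5-depleted cells 213 genes had all their wave peaks beyond the end, and 162 had them there in both series, 80.6% of the first and 76.1% of the second. The 3 of these with the highest coverage show how still they stood. MAP2K1 (ENSG00000169032, chr15:66386837-66491656, plus strand, 104820 bp wide) had control wave peaks at 118, 116, 116 and 116 kb and THOC5-depleted ones at 119, 116, 115 and 116 kb, and the peak fell in the ribosomal protein gene RPL4. UBE2E1 (chr3:23805955-23891640, plus strand), a ubiquitin-conjugating enzyme, had all its wave peaks from 113 to 114 kb, in RPL15. RALY (chr20:33993646-34108308, plus strand), an RNA-binding protein, stood at 120, 120, 117 and 115 kb in control cells and at 120, 120, 119 and 115 kb in THOC5-depleted cells, in EIF2S2 at 40 min. None of the 3 advanced over the time course in either series.

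Few genes had wave peaks that moved downstream at every step. In control cells 210 genes (14.4%, 12.7 to 16.3) were in order, and in THOC5-depleted cells 452 (31.0%, 28.7 to 33.5). The background over all listed genes was 13.2% and 31.3%, so the class does not stand out from it. Of the ordered genes 145 were the same in both series, which is 69.0% of the control and 32.1% of the THOC5-depleted ones. With ties counted as in order, 37.0% and 61.5% of the genes had no step upstream. Standing waves, with all wave peaks inside 1 kb, were found for 213 and 242 genes, 152 of them shared.

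Control wave peaks stepped upstream more often than those of THOC5-depleted cells at every interval. From 10 to 20 min, 20 to 30 min and 30 to 40 min, 29.5%, 24.9% and 34.4% of the genes stepped back in control cells, and 20.1%, 14.4% and 20.7% in THOC5-depleted cells. Steps back of over 20 kb made up 17.9%, 8.38% and 13.5% of the genes in control cells, against 10.4%, 4.40% and 5.01%. With the control 10 min library set aside the ordered share over the other times was 26.3%, against 44.3% for the same times in THOC5-depleted cells. The gap between the series was therefore there without that library.

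Coverage went with the order. The genes were split into quartiles of 364 by their mean coverage, with limits near 47, 144 and 294 rpm. From the lowest to the highest quartile the ordered share was 3.57%, 8.52%, 20.6% and 25.0% in control cells and 7.14%, 32.7%, 39.8% and 44.5% in THOC5-depleted cells. It was higher in THOC5-depleted cells in each quartile. In the lowest quartile the 10 and 40 min control medians were 55.4 and 60.4 kb, and in the highest 6.67 and 15.5 kb. The window start was most frequent in the quartile from 144 to 294 rpm, with 42.9% of control and 58.2% of THOC5-depleted genes at 10 min.

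**Figure D3:**
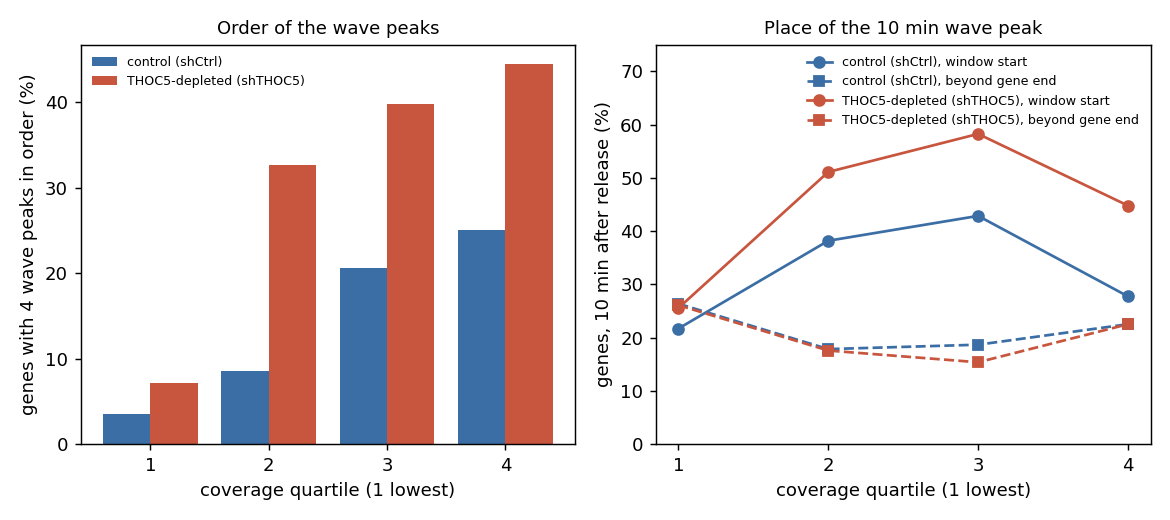
Left, genes with 4 wave peaks in order (%) by coverage quartile, 364 genes each, from 3.57% to 25.0% in control and from 7.14% to 44.5% in THOC5-depleted cells. Right, genes (%) with the 10 min wave peak at the window start (solid) or beyond the gene end (dashed): the window start is more frequent in THOC5-depleted cells in each quartile, while the dashed lines lie close together.

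Gene by gene, wave peaks of THOC5-depleted cells were more often nearer to the TSS than farther from it, at each release time. A shift of at least 2 kb was counted. At 10 min 518 genes (35.6%, background 37.4%) were nearer and 201 (13.8%, background 14.8%) farther. At 20 min it was 506 (34.8%, background 34%) against 222 (15.2%, background 15.9%). At 30 min it was 589 (40.5%, background 40.8%) against 258 (17.7%, background 18%), the widest gap of the 4 times. At 40 min it was 511 (35.1%, background 34.7%) against 326 (22.4%, background 24.2%). Every share was within 2 percentage points of the background over all listed genes, so the class shared a shift seen across widths. Over all genes of the class the median shift was 0 kb in the first 2 libraries, -0.505 kb (-0.931 to -0.109) in the third and -0.0065 kb (-0.242 to 0) in the last, since 501, 372, 288 and 249 genes had the identical position in both series.

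Most genes kept their place in both series. Of genes with the control wave peak beyond the end, 73.3% at 10 min and 78.2% at 40 min also had the THOC5-depleted one there. Of those with a control wave peak in the first 20 kb, 47.6% had the THOC5-depleted wave peak upstream of the TSS at 10 min, and only 4.83% at 40 min. The largest exchange at 30 min was from the gene body to the first 20 kb: of 385 genes with a control wave peak between 20 kb and the gene end, 137 (35.6%) had the THOC5-depleted one within 20 kb of the TSS.

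The 145 genes in order in both series show the advance most directly, though order itself chose them. Their median wave peaks were 3.74, 7.17, 9.14 and 17.0 kb in control cells and 0.106, 5.10, 7.18 and 9.01 kb in THOC5-depleted cells. The THOC5-depleted wave peak was nearer to the TSS in 100, 112, 119 and 119 of the 145 genes. Over the 4 times their median shift was -1.42 kb (-1.98 to -0.699), -1.32 kb (-1.79 to -1.04), -1.67 kb (-1.81 to -1.34) and -2.15 kb (-2.63 to -1.70). From 10 to 20 min the median advance was 3.05 kb (2.51 to 3.36) in control and 3.61 kb (3.14 to 4.14) in THOC5-depleted cells, and from 30 to 40 min it was 2.28 kb (1.88 to 2.80) and 1.58 kb (1.41 to 1.93). At 10 min 66 of the THOC5-depleted and 36 of the control wave peaks of these genes lay at the window start, where no nearer position can be called. The 10 min shift and the first advance are thus partly measured from that floor. THOC5-depleted waves started behind in 100 of the 145 genes, but the first interval cannot tell whether they then lost or gained ground. Leaps of over 20 kb between 30 and 40 min were called in 18 of these genes in control and in 7 in THOC5-depleted cells.

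The genes of this set that lagged most at 40 min had a control wave peak far down the window or behind the gene end. YAF2 (chr12:42157104-42238349, minus strand), a Polycomb-associated protein, had control wave peaks at -1.999, 100, 103 and 104 kb, beyond its end and in GXYLT1 at 40 min, and THOC5-depleted ones at -1.999, 4.13, 5.10 and 7.03 kb. NSD2 (chr4:1871393-1982207, plus strand), a histone H3 methyltransferase, had 4.52, 7.94, 37.0 and 120 kb in control cells against -1.999, 4.34, 6.35 and 41.0 kb. DUSP16, a phosphatase of MAP kinases, had -1.999, 5.58, 8.01 and 76.5 kb against -0.635, 3.16, 5.59 and 5.89 kb. In YAF2 and DUSP16 the series lay close together until the control wave leapt, and in NSD2 the control wave was already ahead at 10 min. The reverse was seen in PIAS2, a SUMO ligase, at 3.83, 7.36, 9.80 and 11.9 kb in control against 4.33, 6.09, 7.70 and 46.4 kb in THOC5-depleted cells, and in HIPK3, a nuclear kinase, at -1.999, 5.10, 7.79 and 10.0 kb against -0.193, 1.56, 7.68 and 28.3 kb.

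Elongation rates were deposited for every gene, and the authors' filters marked 94 genes of the class as kept in control and 152 in THOC5-depleted cells, 50 of them in both. The rate was 0.914 ± 0.784 kb/min (SD over the 94 genes, median 0.583, 0.355 to 0.803) in control and 0.924 ± 0.820 kb/min (152 genes, median 0.462, 0.354 to 0.602) in THOC5-depleted cells. It equals the slope through the 4 wave peaks and a point at the window start at 0 min. In a gene whose wave peaks are in order, a first wave peak far downstream therefore gives a high rate even where the later steps are small.

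The kept genes split accordingly. In control cells 15 of the 94 had a wave peak beyond the gene end, with a median rate of 2.39 kb/min (2.07 to 2.49). A further 16 had all wave peaks inside the gene and the first over 20 kb from the TSS, with a median of 1.01 kb/min (0.664 to 1.69). The other 63 started within 20 kb, with a median of 0.306 kb/min (0.284 to 0.357). In THOC5-depleted cells the same groups held 28, 33 and 91 genes with medians of 2.26, 1.44 and 0.296 kb/min. Without the point at 0 min the differences between the groups shrank to medians of 0.358, 0.216 and 0.213 kb/min in control and 0.204, 0.186 and 0.218 kb/min in THOC5-depleted cells. Genes 60 to 80 kb wide, which leave more of the window behind their ends, had a wave peak there in 35 of 67 kept control genes and a median rate of 1.53 kb/min, against 15 of 94 and 0.583 kb/min here, but 0.335 kb/min (25 genes) against 0.306 kb/min among those starting within 20 kb and staying inside the gene. The difference between the widths was not tested.

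**Figure D4:**
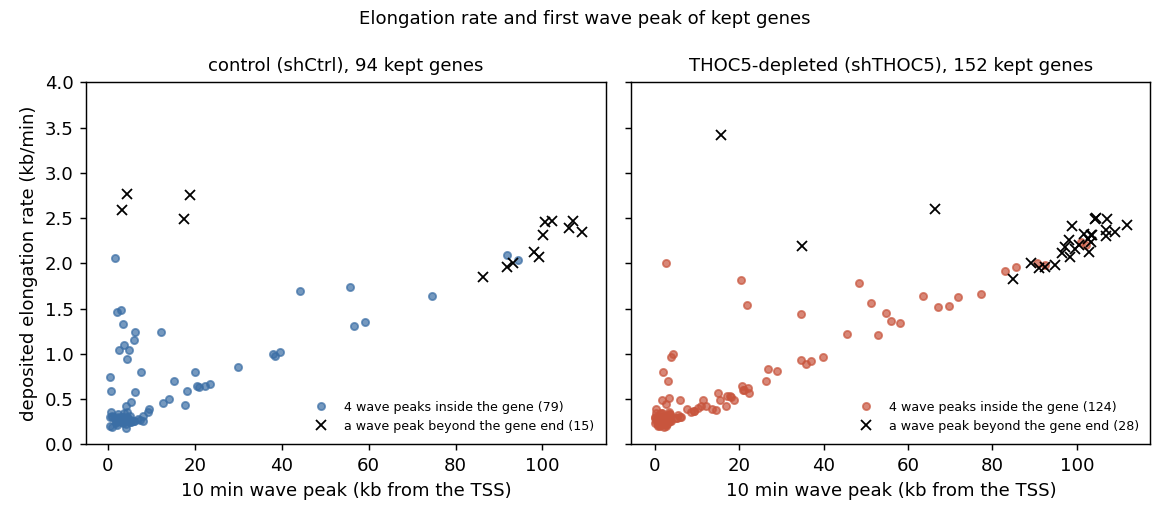
Deposited elongation rate (kb/min) of each kept gene against its 10 min wave peak (kb from the TSS), control left and THOC5-depleted right, with genes that have a wave peak beyond their end as crosses. Crosses have median rates of 2.39 and 2.26 kb/min, and genes staying inside and starting in the first 20 kb 0.306 and 0.296 kb/min.

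In the 50 genes kept in both series the rate was lower in THOC5-depleted cells in 41 (82.0%, 69.2 to 90.2). The median ratio of THOC5-depleted over control was 0.927 (0.850 to 0.957) with a range of 0.154 to 1.99. Among all listed genes kept in both it was 0.956 (0.929 to 0.979) over 110 genes, which include these 50. Genes 60 to 80 kb wide had 0.971 (0.951 to 0.994, 33 genes) and genes 120 to 200 kb wide 0.959 (0.738 to 1.03, 22 genes). Without the point at 0 min the ratio was 0.823, and leaving out each release time in turn gave 0.920 to 0.951.

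The largest falls of the rate came from genes whose control wave leapt late while the THOC5-depleted wave crept on. ZDHHC20, a palmitoyltransferase with a deposited width of 86800 bp, had control wave peaks at 3.00, 3.66, 45.6 and 51.0 kb and THOC5-depleted ones at 2.39, 5.31, 6.40 and 7.42 kb, with rates of 1.49 and 0.228 kb/min. AGO2, the Argonaute protein that cuts target RNA, had 6.23, 10.1, 10.2 and 57.9 kb against 1.10, 6.45, 8.16 and 9.01 kb (ratio 0.235). KDM5B (chr1:202724495-202808487, minus strand), a histone H3 demethylase, had 3.64, 8.64, 10.4 and 49.7 kb against 1.10, 5.97, 8.22 and 9.34 kb (ratio 0.271). KIAA0232 (chr4:6781375-6884170) with a ratio of 0.312 and the transcription factor gene GTF2I (chr7:74650231-74760692) with 0.322 followed the same course. In these genes the control wave peaks at 40 min, or at 30 and 40 min, set the difference, and up to 20 min the series lay within 6 kb of each other.

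Rises of the rate were smaller. AP2A2 (chr11:924881-1012245, plus strand), a subunit of the clathrin adaptor AP-2, had 5.98, 7.99, 9.14 and 9.18 kb in control cells and 3.39, 6.77, 8.53 and 20.9 kb in THOC5-depleted cells (ratio 1.99). CUL3 (chr2:224470150-224585397, minus strand), the scaffold of a ubiquitin ligase family, had 1.88, 3.85, 7.50 and 9.38 kb against 1.65, 6.77, 9.04 and 18.5 kb (ratio 1.70). USP7 (chr16:8892097-8975328, minus strand), a deubiquitinase, had 17.6, 22.4, 22.5 and 120 kb against 15.7, 20.2, 114 and 120 kb (ratio 1.37), so its late wave peaks lay beyond its end in both series. UBE2E3 and G3BP2, the next in rank, had ratios of 1.23 and 1.11. The widest lead of THOC5-depleted cells was at 40 min in AP2A2 and CUL3 and at 30 min in USP7.

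**Figure D5:**
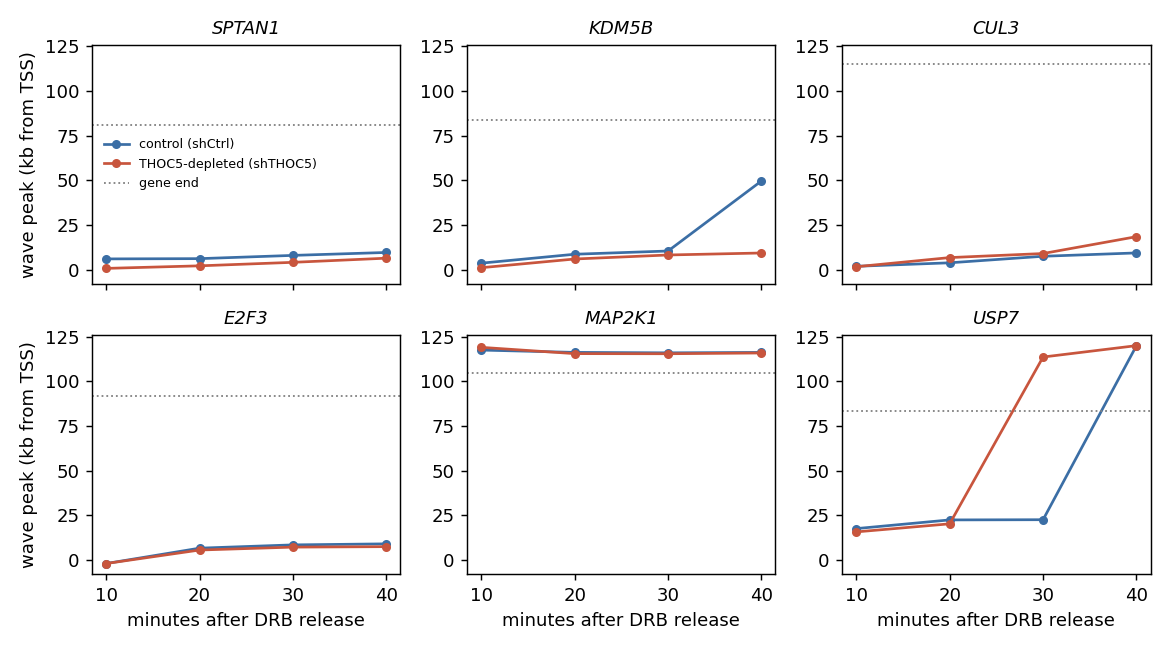
Wave peak (kb from the TSS) against minutes after DRB release for 6 genes, control in blue and THOC5-depleted in red, with the gene end dotted. SPTAN1 and E2F3 stay within 10 kb of the TSS, KDM5B leaps to 49.7 kb in control and CUL3 to 18.5 kb in THOC5-depleted cells at 40 min, MAP2K1 stands behind its end and USP7 passes its end in both series.

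SPTAN1 (chr9:128552558-128633662) and E2F3 (chr6:20401879-20493714), whose starts are printed above, moved downstream at every step in both series, though by uneven steps. SPTAN1 had 6.03, 6.18, 8.00 and 9.64 kb in control and 0.719, 2.15, 4.11 and 6.44 kb in THOC5-depleted cells, with rates of 0.252 and 0.203 kb/min. E2F3 had -1.999, 6.61, 8.44 and 9.02 kb against -1.999, 5.56, 7.18 and 7.45 kb. In both genes the THOC5-depleted wave peak was never ahead. SPAST (chr2:32063556-32157637) had 102, 103, 105 and 120 kb against 103, 103, 103 and 104 kb, and its rates of 2.47 and 2.13 kb/min rest on wave peaks behind its end at 94.1 kb.

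The study sorted genes with a rate in control cells into THOC5-dependent and THOC5-independent classes by whether THOC5 depletion moved the cleavage at the 3′ end of their mRNAs. Of its 55 dependent genes 29 were in this width class, and of its 52 independent genes 21, all of them kept in control cells, so their order in control is fixed by that filter. The control rate was 0.567 ± 0.550 kb/min (SD, median 0.306, 0.278 to 0.574) in the dependent and 1.13 ± 0.851 kb/min (median 0.941, 0.356 to 1.74) in the independent genes. The intervals of the medians overlapped. A 10 min wave peak over 40 kb from the TSS was found in 1 dependent and 5 independent genes. By 40 min the wave peak lay behind the end in 2 and 3 genes. The lists hold only genes with a rate kept on these libraries, so they are not independent evidence of their direction.

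Rate ratios of both classes lay under 1, and their difference was not tested. Among genes kept in both series the median rate ratio was 0.927 in 16 dependent genes, lower in 13, and 0.944 in 12 independent genes, lower in 9. At 10 min 21 of 29 dependent and 12 of 21 independent genes had the THOC5-depleted wave peak at least 2 kb nearer the TSS, and none farther, against shares of 37.4% and 14.8% over all listed genes. At 40 min it was 12 nearer and 2 farther among the dependent, and 12 nearer and 1 farther among the independent genes, against 34.7% and 24.2% over all listed genes. The paper's filter left out genes with a wave peak under 2 kb in the first sample. The paper does not say from where this limit is counted. It was not from the TSS, since GLB1 was kept in control cells with its first wave peak at 0.940 kb. The deposited positions count from the window start, 2 kb in front of the TSS. Of all listed genes 33.8% had the control 10 min wave peak at the window start, where no nearer one can be called. The shares over all listed genes are therefore not a like background for these filtered lists. The slowest dependent gene, GLB1 (chr3:32996609-33097202), the lysosomal beta-galactosidase, had 0.940, 2.93, 4.96 and 5.58 kb in control and -1.999, 1.61, 3.46 and 5.48 kb in THOC5-depleted cells. The slowest independent gene, RAB10 (chr2:26034084-26137454), a GTPase of membrane traffic, had 2.09, 4.38, 5.16 and 6.89 kb against -1.999, 1.86, 5.02 and 6.31 kb. Both had THOC5-depleted wave peaks at the window start at 10 min and near the control ones at 40 min. Among the fastest, the dependent MAP3K2 (chr2:127298668-127388465), a MAP kinase kinase kinase, stood at 98.0 to 103 kb in control and 96.4 to 102 kb in THOC5-depleted cells, behind its end, in ERCC3 at 40 min. The independent NF2 (chr22:29603556-29698598), the tumour suppressor merlin, had 1.74, 5.10, 67.8 and 67.9 kb against -1.999, 0.812, 4.25 and 7.90 kb.

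Gene groups of known function differed in coverage and in how often their waves were in order. Among all genes of the class the median coverage was 144 rpm and 14.4% were in order in control and 31.0% in THOC5-depleted cells. Genes of transcription and RNA processing (28 genes, median 368 rpm) were in order in 10 and in 19 cases. Their most covered member, CNOT1, the scaffold of the main deadenylase complex, had 3.72, 3.57, 5.84 and 5.53 kb in control and -1.999, 4.02, 4.23 and 5.15 kb in THOC5-depleted cells. Chromatin modifiers and remodellers (20 genes, 452 rpm) were in order in 7 and 11 cases. Cytoskeleton and motor genes (24, 347 rpm) were in 8 and 14, and membrane trafficking genes (25, 359 rpm) in 7 and 13. Ubiquitin ligases and deubiquitinases (29, 296 rpm) went from 5 to 16 and protein kinases (18, 313 rpm) from 5 to 10. In these groups the ordered count was thus higher in THOC5-depleted than in control cells.

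The other groups had lower coverage than these. Channels and neurotransmitter receptors (18 genes), most of which serve neurons and muscle, had a median of 7.83 rpm and were in order in 2 and 1 cases, with control medians from 80.4 to 120 kb. Extracellular matrix and adhesion genes (18, 50.5 rpm) were in order in 0 and 4. Genes of DNA replication, repair and cohesin (23, 202 rpm) were in order in 8 in each series and kept close to the start, with medians of -1.999, -0.10, 4.08 and 6.84 kb in control and -1.999, -1.999, 3.60 and 6.56 kb in THOC5-depleted cells. Their most covered members include TOP1, DNA topoisomerase I, at 2.71, 8.87, 11.2 and 45.9 kb in control and -1.999, 6.20, 8.65 and 41.8 kb in THOC5-depleted cells, a leap seen in both series.

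In every one of these groups, more genes had a 30 min wave peak at least 2 kb nearer the TSS on THOC5 depletion than had one farther away. The counts were 12 against 3 in transcription and RNA processing, 10 against 4 in chromatin, 11 against 2 in cytoskeleton, 12 against 2 in trafficking and 12 against 6 in ubiquitin genes. They were 7 against 2 in kinases, 8 against 4 in DNA repair, 11 against 3 in matrix genes and 9 against 2 in channels. Over all listed genes the shares were 40.8% and 18%. At 40 min the matrix and adhesion genes had 2 nearer and 12 farther, the reverse of 30 min, against shares of 34.7% and 24.2% over all listed genes. TNC, the matrix protein tenascin-C and the most covered of them, had 39.8, 6.71, 43.9 and 9.90 kb in control and 2.64, 4.45, 4.93 and 7.79 kb in THOC5-depleted cells, so its control wave peak went back and forth.

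High coverage did not guarantee a moving wave. CCDC200 had the highest coverage of the class, 7519 rpm with shCtrl and 4725 rpm with shTHOC5, with wave peaks at 27.8, 27.7, 48.5 and 48.9 kb and at 53.8, 49.8, 29.0 and 28.0 kb. SAE1, a subunit of the SUMO activating enzyme, had 1930 and 1068 rpm with 24.0, 25.0, 30.1 and 27.8 kb against -1.999, -1.999, 23.7 and 26.6 kb. MYH9, non-muscle myosin, had 97.1, 8.25, 7.40 and 14.3 kb in control against 3.25, 5.45, 7.69 and 12.2 kb. None of these 3 genes was in order in control cells.

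Coverage itself changed little in the middle of the class. The median was 133 rpm with shCtrl and 148 rpm with shTHOC5, and the median log2 ratio (1 rpm added) was 0.09 (0.06 to 0.14). Over all listed genes it was 0.12, and relative to that the class stood at -0.03. A rise of at least 1.5-fold was found in 366 genes (25.1%, background 27.1%) and a fall in 194 (13.3%, background 14.5%). Relative to the median of all genes it was 288 against 271. In these bulk libraries fewer cells making an RNA and less RNA per cell cannot be told apart. Genes under 100 rpm had a median log2 ratio of 0.28 and those above of 0.02. Among the 413 genes with both 10 min wave peaks at the window start, 120 rose and 22 fell, with a median of 0.26, against 0.03 in the 162 genes with all wave peaks beyond the end.

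The largest changes of coverage, among genes with a mean of at least 100 rpm, were in genes without an orderly wave. CHRNB4 and CACNG3, a nicotinic receptor subunit and a subunit associated with glutamate receptors, had 17.0 and 37.5 rpm with shCtrl against 235 and 498 rpm with shTHOC5, rises of 13.1-fold and 13.0-fold with 1 rpm added. PLSCR2, a scramblase family gene, had 55.8 against 229 rpm. TNFRSF8, the lymphocyte receptor CD30, fell from 311 to 69.9 rpm, BACE2, a protease, from 220 to 68.8 rpm, and FLRT1, an adhesion protein, from 1235 to 429 rpm. None of these 6 genes was in order in either series, but neither were 939 of the 1456 genes of the class. The control 40 min wave peak of FLRT1 lay behind its end in MACROD1, and that of CHRNB4 in CHRNA3. The part of neighbouring genes in these coverage changes was not tested. The wave peaks of PLSCR2 stood between 13.0 and 13.6 kb in THOC5-depleted cells, and those of CACNG3 lay at 97.4, 115, 31.1 and 32.3 kb in control and 31.2, 85.1, 31.1 and 87.6 kb in THOC5-depleted cells.

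Base composition did not set the wave peaks apart from the rest of the gene. In the 2 kb around wave peaks inside the gene the GC share differed from that of the whole gene by a median of -0.06 to 0.51 percentage points over the 8 libraries. The share of T on the coding strand, a measure of where 4SU can be built in, was above the gene's own in 48.3% to 53.1% of the genes. Genes with both 10 min wave peaks at the window start had a median GC share of 39.5% and those with all wave peaks beyond the end of 43.8%, against 41.3% over all 1402 genes of annotated width.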

How the data were processed

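DRB/TTchem-seq libraries of HEK293 cells were used, 8 of the 29 samples of the series; the other 21 samples are not analysed here. Per the labels, 4SU-labelled RNA was fragmented, biotinylated, bound to streptavidin and sequenced, with 1 library per series and release time. The authors normalised coverage to sequencing depth, called 1 wave peak per gene and time with a published single-gene pipeline, and deposited the positions in bp from the window start. The authors also deposited 1 mean coverage per gene and series, in a column headed as RPKM whose values sum to 1000000 over the 4592 genes and which was read as RPM (rpm in the text); how the libraries were combined for it, and the depth of each library, are not given in the sources used here. The elongation rate, a score in kb/min, was deposited as the authors' slope through 5 points, and their filter mark was used as deposited. The aligner of these libraries is not given in the sources used here.

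Both tables were joined by gene and cut by width, 2 kb were subtracted from each position, and neighbours were read from GENCODE release 44 (GRCh38), which gave the deposited width for 1402 of the 1456 genes. Promoters came from RefSeq. Medians have distribution-free binomial and shares Wilson 95% intervals; the code was tested on simulated data. With 1 library per point no test between conditions was run. Coverage ratios use a pseudocount of 1 rpm. Base composition was read 1000 bp to each side of a wave peak. The genes, gene lists and comparisons were chosen with earlier results of these data known. Genes named were the 4 slowest and 4 fastest of each of the study's classes, the 5 largest falls and rises of the rate among genes kept in both series, the 3 that lag and the 3 that lead most at 40 min among genes in order in both, the 4 with the highest coverage, the 2 most covered of each functional list, the 3 most covered with all wave peaks beyond the end, and the 3 largest rises and falls of coverage at a mean of at least 100 rpm; a selection of these is described, 1 is not reported here, and SPTAN1, SPAST and E2F3 were added after their values were seen, as the slowest and fastest genes kept in both series and the most covered gene that left the window start in order in both. Alternatives changed the coverage minimum, the width limits, the wave peaks included, the definition of order, the pseudocount, the scaling, the points of the rate fit and the release times. Python 3.11.15, numpy 2.4.6, pandas 2.3.3, scipy 1.17.1, pysam 0.24.0 and matplotlib 3.10.9 were used.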

Additional observations from a re-analysis of the deposited data

How the results depend on the processing

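With 1 library per point and unknown depth, the limits of these results are the places where a wave peak can be called and the genes that are counted; of 93 values under alternative settings, 35 moved by less than their interval, 57 moved by more and 1 changed sign, and the 18 values at a width of 90 to 110 kb all stayed within it. What caused the shifts was not tested. The libraries of both series pair by release time, but no test over these 4 pairs was run.

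Median wave peaks at 10, 20, 30 and 40 min were 5.09, 6.92, 12.5 and 13.4 kb in control cells among the genes that reached 100 rpm in each series, and -1.999, 7.04 and 9.92 kb at 10, 30 and 40 min in THOC5-depleted cells. Without genes called at the window start they were 67.3, 35.4, 45.5 and 40.5 kb in control and 72.4, 23.4, 17.3 and 26.7 kb in THOC5-depleted cells. Without wave peaks beyond the gene end they were 3.57, 4.97, 8.77 and 10.2 kb, and -1.999, 3.13, 5.56 and 8.29 kb. The median difference between the series (THOC5-depleted minus control) was -0.576, -0.765, -1.24 and -0.42 kb without the window start, and -1.42, -1.32, -1.67 and -2.15 kb in genes in order in both. Its mean was -7.27, -5.64, -8.76 and -3.55 kb. Leaving out wave peaks beyond the end gave -1.21 and -0.455 kb for the 30 and 40 min libraries, and a minimum of 100 rpm gave -0.357 kb for the 40 min library. All these differences were in one direction, nearer the TSS in THOC5-depleted cells. Other settings gave a median difference of 0 kb. For the 10 min libraries these were a minimum of 100 rpm, leaving out wave peaks beyond the end, and a width of 90 to 110 kb. For the 40 min libraries it was the width of 90 to 110 kb.

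The share of wave peaks beyond the gene end came to 20.6% with shCtrl and 18.8% with shTHOC5 when they had to lie more than 5 kb behind it, and 20.5% in THOC5-depleted cells at 100 rpm or more. Among genes with no protein-coding gene behind the end, a setting chosen after seeing the data, it was 8.64% and 6.74%. The ordered share was 21.6% and 41.0% at 100 rpm or more and 37.0% and 61.5% with ties allowed. With each release time left out it ran from 25.6% to 28.5% in control and from 38.7% to 44.3% in THOC5-depleted cells, fewer steps being required. The median log2 coverage ratio was 0.0177 at a mean of 100 rpm or more and -0.0302 relative to all listed genes, so its sign depended on the scaling. The rate ratio was 0.823 without the point at 0 min, and 0.920 to 0.951 with each release time left out.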
